A study of Mus musculus with 12 samples.

Results

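S100a8, S100a9 and 8 genes whose products fill the later granules of neutrophils or sit on their surface were read in RNA-seq counts of lineage-negative mouse bone marrow. The other 8 were Ngp, Camp, Ltf, Lcn2, Chil3, Mmp8, Mmp9 and Cd177. They were chosen by name: a row of the count table belonged to the set when its Ensembl identifier, read without its version, carried 1 of these 10 symbols in GRCm38. The names were chosen with earlier results of these data known. Counts set beside a share of all genes below therefore describe the set and are no independent test of it. All 10 were found among 31060 rows, and all 10 were among the 15630 genes with enough counts to be tested. The mice were C57BL/6 of 4 genotypes: Tet2+/-;Ins2Akita/+ (n = 3, here the double mutant), Tet2+/- (n = 3), Ins2Akita/+ (n = 2) and WT (n = 3). Tet2 encodes an enzyme that oxidises methylated cytosine in DNA. Akita is a dominant allele of Ins2, an insulin gene, whose misfolded product harms pancreatic beta cells and raises blood glucose. Number 4 of the double mutant samples was not used. The sources used here give no age, no Cre or other restriction of an allele to a tissue, and no word on whether a library holds 1 animal or a pool.

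Neutrophils are made in the marrow from granulocyte progenitors, and their granules are filled in waves as the cell matures. Primary granules come first and hold myeloperoxidase and serine proteases. Specific granules with lactoferrin, lipocalin and cathelicidin follow, and gelatinase granules with matrix metalloproteinases come last. The S100 pair accumulates in the cytosol from the myelocyte stage on and is among the most abundant products of the mature cell. RNA of these genes in marrow therefore marks the later steps of granulocyte maturation. In bulk RNA, more cells of that kind and more RNA per cell cannot be told apart.

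Library totals ran from 14814409 to 22600405 counts, and a level of 3 counts corresponded to 0.133 to 0.203 CPM (counts per library total, scaled by 1e6). The lowest count of any of the 10 genes in any library was 652 (Mmp8 in WT number 3) and the highest 426843 (S100a9 in double mutant number 2), so counting error was small beside the spread between libraries. The libraries numbered 3 stood apart from the others. The share of counts from mitochondrial genes was 9.76%, 4.46% and 3.43% in number 3 of the double mutant, Tet2+/- and WT, and 1.36 to 1.94% in the other 8 libraries. There is no labelled Ins2Akita/+ library numbered 3: a column headed A3 follows the naming of the Ins2Akita/+ columns A1 and A2, but no label matches it, and it was not used. Tet2, read as a check of the labels, was at 34.2 to 108 CPM in the libraries labelled double mutant and 18.5 to 19.3 CPM in those labelled Tet2+/-. It was at 107 to 131 CPM in Ins2Akita/+ and 45.1 to 128 CPM in WT. The shared Tet2 label of the first 2 groups thus did not go with a shared Tet2 level, and each direction below is between libraries that carry these labels.

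The promoter windows of the genes came from the RefSeq table for GRCm38.p6, which matched 9 of the 10. Mmp9 is named only. Each window of 250 bases ends at the base before the transcription start in RefSeq. They were searched on both strands for TTGCNNAA, a form of the site bound by C/EBP factors, and its reverse complement TTNNGCAA. A match was present in 5 of 9 windows (55.6%), against 9.56% of all 32851 promoter windows and 7.92% of the 13792 windows of tested genes. Counted back from -1 at the base before the start, a match began at -236 in S100a9, at -138 and -11 in Ngp, at -75 in Ltf, at -216 in Lcn2 and at -19 in Mmp8. The letters GAGGAA or TTCCTC, a core of sites for ETS factors such as PU.1, were in 5 of 9 windows (55.6%), against 23.3% of all. These are matches of letters, with no binding measured. Transcript starts differ between annotations, and in GENCODE M21 5 windows share bases with exons of the gene: 197 for Lcn2, 161 for Camp, 93 for S100a8, 61 for Ngp and 21 for Ltf. The windows of S100a9, Ltf and Mmp8 are shown 5′ to 3′ on the strand of the gene, with the C/EBP-type match in capitals, because a cytosolic protein, a secreted specific granule protein and a metalloproteinase are compared below.
S100a9 chr3:90695722-90695971 -: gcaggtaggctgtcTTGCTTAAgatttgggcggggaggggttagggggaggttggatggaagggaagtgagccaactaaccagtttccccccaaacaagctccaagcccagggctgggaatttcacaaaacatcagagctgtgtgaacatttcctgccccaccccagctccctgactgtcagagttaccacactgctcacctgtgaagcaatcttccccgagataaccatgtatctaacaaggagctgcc
Ltf chr9:111019042-111019291 +: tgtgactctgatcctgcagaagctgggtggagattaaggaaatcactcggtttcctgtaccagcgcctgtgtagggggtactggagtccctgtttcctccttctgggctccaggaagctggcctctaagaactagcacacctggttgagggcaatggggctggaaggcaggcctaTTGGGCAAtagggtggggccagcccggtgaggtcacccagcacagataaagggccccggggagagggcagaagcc
Mmp8 chr9:7558179-7558428 +: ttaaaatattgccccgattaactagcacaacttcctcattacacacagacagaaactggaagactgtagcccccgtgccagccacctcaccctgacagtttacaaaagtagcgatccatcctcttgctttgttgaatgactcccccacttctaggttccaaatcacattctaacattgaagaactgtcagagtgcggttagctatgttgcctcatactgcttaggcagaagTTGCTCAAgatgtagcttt

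All 10 genes were highest on average in the double mutant, with means 2.36 (Camp) to 6.89 times (Mmp9) those of WT. Summed, they took 4.64, 6.44 and 5.71% of all counts in double mutant libraries 1 to 3, and 2.82, 2.99 and 0.293% in Tet2+/-. They took 3.10 and 1.74% in Ins2Akita/+ libraries 1 and 2 and 2.37, 2.43 and 0.235% in WT libraries 1 to 3. The double mutant was thus high in all 3 libraries, while Tet2+/- and WT each held 1 low library, number 3 in both. In the values that follow, libraries are in the order of their numbers and CPM is scaled with TMM factors, which correct library size for composition.

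S100a8 and S100a9 encode calcium- and zinc-binding proteins that pair as calprotectin, withhold metal from microbes and act on Toll-like receptor 4 when released. S100a8 (ENSMUSG00000056054.9, chromosome 3, 90668978 to 90670035, plus strand) stood at 6633, 11565 and 10762 CPM in the double mutant, 4170.4, 4459 and 460.1 CPM in Tet2+/-, 4229 and 2217 CPM in Ins2Akita/+ and 3389, 3409 and 285 CPM in WT. S100a9 (ENSMUSG00000056071.12, chromosome 3, 90692632 to 90695721, minus strand), its neighbour 22597 bases away on the opposite strand, stood at 11908, 21226 and 18289.9 CPM in the double mutant, 7749, 8579 and 895 CPM in Tet2+/-, 8164 and 4191 CPM in Ins2Akita/+ and 6194, 6152 and 545 CPM in WT. The 3 double mutant libraries lay above all 8 others for both genes, as they did for 9 of the 10 genes (5.04% of all genes tested), and Tet2+/- and WT number 3 were the lowest. Per kilobase of exon S100a9 was the most abundant of the 10, with a mean level of 32838 CPM per kb in the double mutant and 8232 in WT. S100a8 followed with 13910.1 in the double mutant and 3402 in WT.

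Ngp and Camp encode cathelicidin-type proteins of specific granules. Camp gives the antimicrobial peptide CRAMP, and Ngp is neutrophilic granule protein, found in mouse. Ngp (ENSMUSG00000032484.8, chromosome 9, 110419747 to 110423012, plus strand) was at 12146, 15532 and 11521 CPM in the double mutant, 6713, 6891 and 537 CPM in Tet2+/-, 8073 and 4348 CPM in Ins2Akita/+ and 5783, 6163 and 421 CPM in WT. Camp (ENSMUSG00000038357.10, chromosome 9, 109847379 to 109849617, minus strand), 570130 bases from Ngp, was at 3881, 4660.5 and 3207 CPM in the double mutant, 1979.9, 2506 and 162 CPM in Tet2+/-, 2920.2 and 1689 CPM in Ins2Akita/+ and 2432, 2376 and 161 CPM in WT. The Camp window held no match of the C/EBP-type letters, while the window of Ngp held 2. Again every double mutant library lay above all others. For Camp the lowest double mutant library, number 3, was at 3207 CPM, close to the 2920 CPM of Ins2Akita/+ number 1.

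Ltf encodes lactoferrin, which binds iron, and Lcn2 encodes lipocalin 2, which captures the iron carriers of bacteria. Both proteins are classic contents of specific granules. Ltf (ENSMUSG00000032496.7, chromosome 9, 111019271 to 111042767, plus strand) was at 5848, 8469.7 and 8418 CPM in the double mutant, 3018, 3179.8 and 393 CPM in Tet2+/-, 4089 and 1820.5 CPM in Ins2Akita/+ and 2486, 2897 and 332 CPM in WT. Lcn2 (ENSMUSG00000026822.14, chromosome 2, 32384633 to 32388252, minus strand) was at 2889, 4303 and 4191 CPM in the double mutant, 1335, 1546 and 148 CPM in Tet2+/-, 1624 and 778 CPM in Ins2Akita/+ and 1098, 1209 and 128 CPM in WT. For both, numbers 2 and 3 of the double mutant were nearly level and number 1 lay lower, still above every library of the other genotypes. Chil3 encodes a chitinase-like lectin without chitinase activity that is made by neutrophil precursors and some macrophages. Chil3 (ENSMUSG00000040809.10, chromosome 3, 106147554 to 106167564, minus strand) was at 2636, 2661 and 1832 CPM in the double mutant, 1789, 2048 and 74.7 CPM in Tet2+/-, 1253 and 885 CPM in Ins2Akita/+ and 905, 1000.4 and 71.0 CPM in WT. It was the 1 gene of the 10 whose double mutant libraries overlapped with another group: number 3 of the double mutant lay below Tet2+/- number 2. Its near copy Chil4 was at 0.060 to 2.44 CPM, so few reads were assigned to it. None of the 10 overlaps another annotated gene in GENCODE M21, which limits errors from counting without strand.

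Mmp8 encodes the collagenase of specific granules and Mmp9 encodes gelatinase B, the marker enzyme of the last granule type. Mmp8 (ENSMUSG00000005800.2, chromosome 9, 7558456 to 7568485, plus strand) was at 415, 806 and 869 CPM in the double mutant, 242, 170.0 and 62.9 CPM in Tet2+/-, 216 and 115 CPM in Ins2Akita/+ and 147, 167 and 39.4 CPM in WT. Mmp9 (ENSMUSG00000017737.2, chromosome 2, 164940780 to 164955850, plus strand) was at 565, 1259 and 1344 CPM in the double mutant, 259.9, 179.6 and 99.2 CPM in Tet2+/-, 323 and 113 CPM in Ins2Akita/+ and 169.7, 217 and 72.8 CPM in WT. Per kilobase of exon they had the lowest double mutant means of the 10, 287 and 298 CPM per kb, and in both number 1 was the lowest double mutant library. Cd177 encodes a surface protein that also lies in the membrane of specific granules. Cd177 (ENSMUSG00000052212.6, chromosome 7, 24743983 to 24760311, minus strand) was at 1114, 1845 and 1579 CPM in the double mutant, 395, 319.7 and 53.7 CPM in Tet2+/-, 626 and 304 CPM in Ins2Akita/+ and 379, 455 and 51.7 CPM in WT. All double mutant libraries were above all others for these 3 genes, and the lowest values were in number 3 of Tet2+/- and WT.

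**Figure D1:**
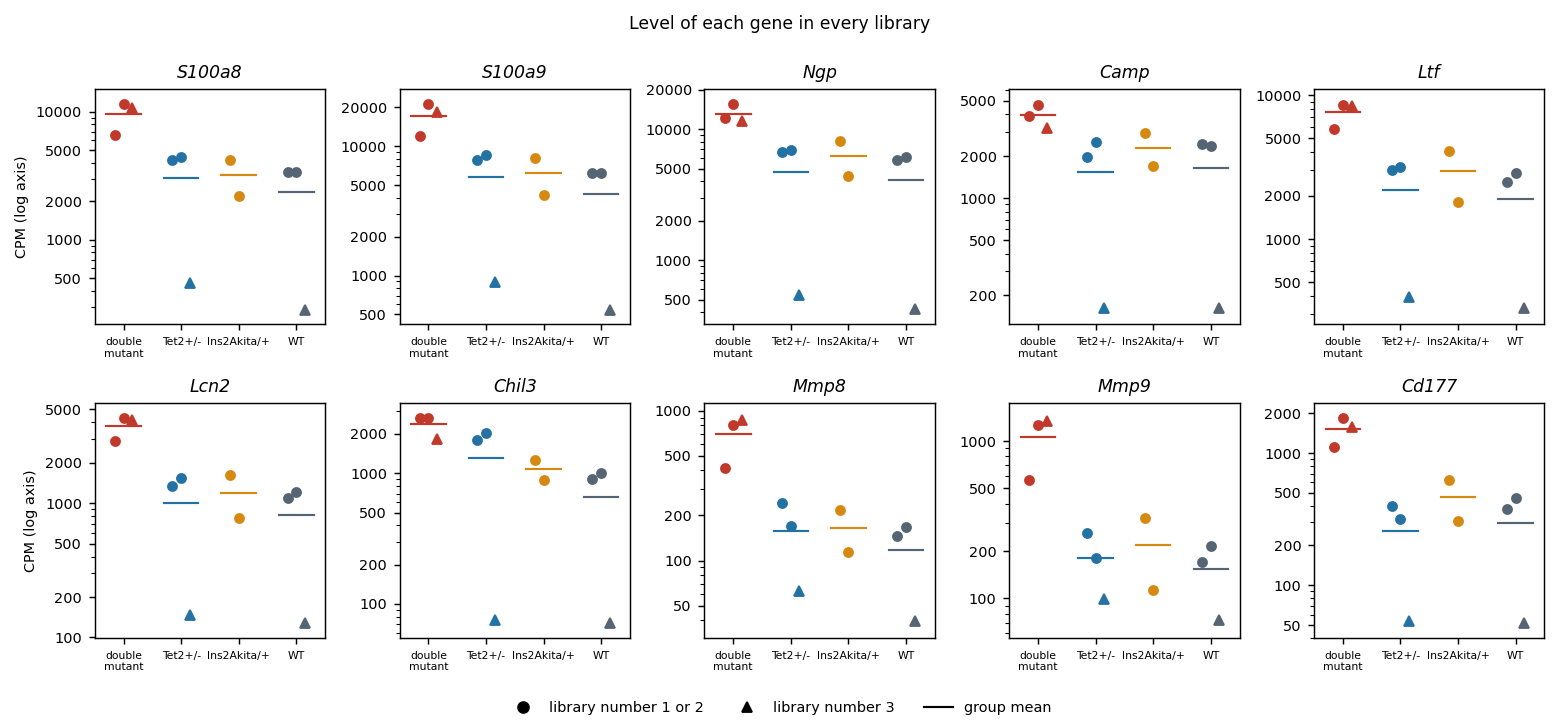
CPM with TMM factors (log axis) of each of the 10 genes in the 11 libraries, by genotype. Circles are libraries numbered 1 or 2, triangles those numbered 3, and lines are group means. The triangle is the lowest point of Tet2+/- and of WT for all 10 genes, while that of the double mutant lies above every triangle of the other genotypes.

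The order of the group means was double mutant, Ins2Akita/+, Tet2+/- and WT for 7 genes. Camp and Cd177 had Tet2+/- below WT, and Chil3 had Tet2+/- above Ins2Akita/+. In Tet2+/- against WT, Ins2Akita/+ against WT and Ins2Akita/+ against Tet2+/-, 0 of 10 genes had groups without overlap, where 4.24%, 11.6% and 22% of all genes had. Number 3 was the lowest library of Tet2+/- and of WT for all 10 genes. It widened both groups, so this count does not show that the genotypes were alike. The coefficient of variation within a group was 16.5 to 40.5% in the double mutant, 44.8 to 82.2% in Tet2+/-, 24.4 to 68.2% in Ins2Akita/+ (n = 2) and 48.0 to 78.2% in WT. The ranges of the double mutant and Ins2Akita/+, which has no number 3, overlapped.

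For both labels together, the double mutant was set against WT. Every double mutant library was above every WT library for 10 of 10 genes, against 9.55% of all genes tested. The log2 difference was largest for the metalloproteinases, 2.79 (SE 0.59, adjusted p = 0.139) for Mmp9 and 2.57 (SE 0.63, adjusted p = 0.201) for Mmp8, by edgeR's quasi-likelihood test over all genes. Cd177 followed at 2.36 (SE 0.83, adjusted p = 0.403) and Lcn2 at 2.22 (SE 0.90, adjusted p = 0.486). S100a8 was at 2.03 (SE 0.93, adjusted p = 0.588), and S100a9 at 1.996 (SE 0.92, adjusted p = 0.592). In mean level S100a9 was at 17142 ± 4764 CPM in the double mutant and 4297 ± 3249 CPM in WT (SD, n = 3 each). The smallest difference was that of Camp, 1.24 (SE 0.98, adjusted p = 0.827). The median of the 10 was 2.01, beside -0.05 over all genes. None of the 10 passed an adjusted p of 0.05, where 0.0448% of all genes did; 5 of 10 had an unadjusted p under 0.05, as did 1374 of 15630 genes. DESeq2 called Mmp8 and Mmp9, 2 of 10 against 2.61% of all genes.

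Fits that treat library number 3 apart made other calls in the same comparison. With the replicate number as a block, Mmp9 rose in the double mutant (2.97, adjusted p = 0.0488), 1 of 10 genes against 0.921% of all genes called higher. Over all alternatives its adjusted p ran from 0.00021 to 0.458. Without the libraries numbered 3, 4 of 10 rose in the double mutant, against 1.63% of all genes. These were Chil3 (1.48, adjusted p = 0.0130), Cd177 (1.83, adjusted p = 0.0419), Mmp8 (1.96, adjusted p = 0.0434) and Lcn2 (1.64, adjusted p = 0.0435). In that fit Mmp9 had 2.24 (SE 0.56, adjusted p = 0.0769), the largest difference of the 10 and the widest error. The median of the 10 was 1.45 there. With number 3 as a term of its own, Mmp9, Mmp8 and Cd177 rose, 3 of 10 against 2.7% of all genes. Within library numbers 1, 2 and 3 the median difference of the 10 was 1.31, 1.77 and 4.73, all 10 genes being higher in the double mutant each time.

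For the Akita label beside the Tet2 label, the double mutant was set against Tet2+/-. Tet2 itself was at 34.2 to 108 CPM in the first group and 18.5 to 19.3 CPM in the second. A difference here can therefore not be assigned to the Akita allele alone. For 9 of 10 genes, all but Chil3, the groups did not overlap, against 8.48% of all genes. Mmp9 had a log2 difference of 2.56 (SE 0.58, adjusted p = 0.122), Cd177 one of 2.56 (SE 0.84, adjusted p = 0.282) and Mmp8 one of 2.14 (SE 0.62, adjusted p = 0.228). Chil3 had the smallest, 0.87 (SE 1.03, adjusted p = 0.759). The median was 1.73, and 0 of 10 genes passed the test, against 0.262% of all genes; the unadjusted p was under 0.05 for 3 of 10 and for 1701 of 15630 genes, and DESeq2 called Mmp8, Mmp9 and Cd177, 3 of 10 against 3.44%. With the replicate block Mmp9 (2.74, adjusted p = 0.0388) and Cd177 (3.20, adjusted p = 0.0452) rose, 2 of 10 against 2.83% of all genes called higher. Their adjusted p ran from 0.00098 to 0.386 and from 0.0192 to 0.712 over all alternatives. Without the libraries numbered 3 Cd177 alone rose (2.05, adjusted p = 0.0192), 1 of 10 against 3.88% of all genes, and the median of the 10 was 1.14. With number 3 as a term the count was 3 of 10 against 5.37%, again Mmp9, Mmp8 and Cd177. The lowest group mean of Cd177 was that of Tet2+/-.

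For the Tet2 label beside the Akita label, the double mutant was set against Ins2Akita/+, with 2 libraries in the second group. The groups did not overlap for 10 of 10 genes, against 16.6% of all genes. Mmp9 again had the largest log2 difference, 2.28 (SE 0.67, adjusted p = 0.461), and Camp the smallest, 0.76 (SE 1.11, adjusted p = 0.962). The median of the 10 was 1.53 and 0 passed by edgeR, against 0.0384% of all genes; 2 of 10 and 1032 of 15630 genes had an unadjusted p under 0.05, and DESeq2 called Mmp9, 1 of 10 against 1.21%. Without the libraries numbered 3 Chil3 rose in the double mutant (1.31, adjusted p = 0.0207; 0.0207 to 1 over all alternatives), 1 of 10 against 1.62% of all genes. Within library number 1 the median difference was 0.73 and within number 2 it was 2.36, so the size depended on which Ins2Akita/+ library stood beside the double mutant.

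Each allele alone was compared with WT. In Tet2+/- against WT, 8 of 10 log2 differences were above 0 with a median of 0.27. Camp and Cd177 were below 0, at -0.10 (SE 0.97) and -0.20 (SE 0.79). None of the 10 passed by edgeR (adjusted p = 1 for the largest, Chil3), against 0.0256% of all genes, and 0 had an unadjusted p under 0.05; DESeq2 called 0. Chil3 had 0.99 (SE 1.04) with all libraries and 1.01 (SE 0.19, adjusted p = 0.181) without those numbered 3. Its Tet2+/- libraries 1 and 2 lay above both matching WT libraries, while the number 3 libraries were nearly level at 74.7 CPM in Tet2+/- and 71.0 CPM in WT.

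In Ins2Akita/+ against WT all 10 log2 differences were above 0, from 0.45 to 0.70 with a median of 0.54. By edgeR 0 of 10 passed, against 0% of all genes; 0 of 10 had an unadjusted p under 0.05, and DESeq2 called 0. The median was 0.07 without the libraries numbered 3. Within number 1 all 10 genes were higher in Ins2Akita/+ (median 0.52), and within number 2 all 10 were lower (median -0.57). The sign of this comparison therefore rested on single libraries. The 3 comparisons against WT share the WT libraries.

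Whether the double mutant exceeded the sum of both single differences from WT was read from the interaction of the labels on the log2 scale. It was above 0 for all 10 genes, with a median of 1.19. Mmp9 had the largest value, 2.05 (SE 0.84, adjusted p = 1), and Chil3 the smallest, 0.17 (SE 1.54, adjusted p = 1). By edgeR 0 of 10 genes passed, against 0% of all genes, and DESeq2 called 0 of 10, against 60 of 15630 genes. Without adjustment, 1 of 10 and 537 of 15630 genes had p under 0.05. The median of the 10 was 2.11 with the replicate block, where 0 passed. An unadjusted p under 0.05 was found there for 3 of 10 and for 1558 of 15630 genes. The median was 2.06 with number 3 as a term, where these counts were 3 of 10 and 1894 of 15630. Without the libraries numbered 3 the median was 1.11 and 0 of 10 passed. In that fit 7 of 10 and 1937 of 15092 genes had an unadjusted p under 0.05.

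**Figure D2:**
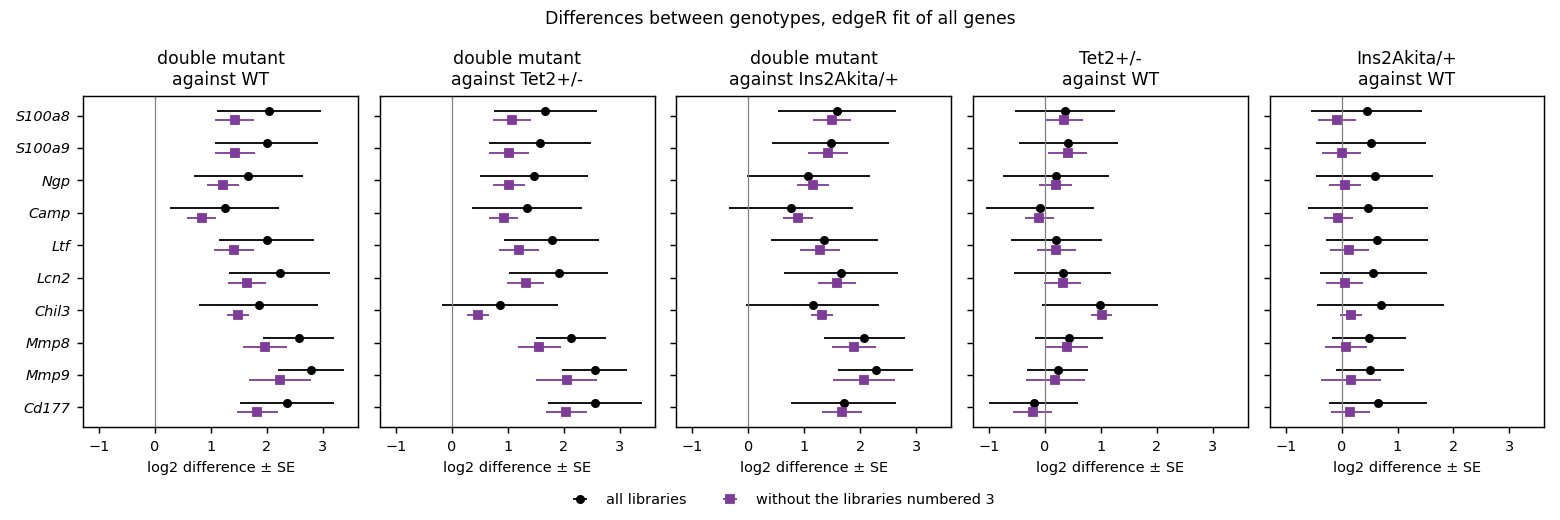
Log2 difference ± SE of each gene in 5 comparisons by edgeR, with all 11 libraries (black circles) and without those numbered 3 (purple squares). In the 3 comparisons of the double mutant all points lie right of 0, and leaving out number 3 narrows most bars. In Ins2Akita/+ against WT the purple points lie near 0.

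Library number 3 was set against numbers 1 and 2 within the double mutant, Tet2+/- and WT. Against the mean of numbers 1 and 2, the median log2 difference of the 10 genes was 0.23 in the double mutant. It was -3.21 in Tet2+/- and -3.33 in WT. Chil3 was at -0.53 in the double mutant, -4.68 in Tet2+/- and -3.74 in WT. Mmp9 was at 0.67 in the double mutant, -1.12 in Tet2+/- and -1.40 in WT. The most negative value was that of Chil3 in Tet2+/- and of Camp in WT (-3.90), and the least negative that of Mmp9 in both.

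A fit with separate terms for number 3 was added because these medians had been seen, so its p-values restate that observation and are no independent support for it. The double mutant number 3 is 1 library, assumed to vary as the other libraries do. In WT and Tet2+/- with 1 common term, 10 of 10 genes fell in number 3 against numbers 1 and 2, where 27.6% of all genes were called lower. The log2 differences ran from -4.19 for Chil3 to -1.28 for Mmp9 (adjusted p = 0.0493). In the double mutant 0 of 10 genes were called, against 18.8% of all genes, with values from -0.53 to 0.56; 0 of 10 had an unadjusted p under 0.05, and DESeq2 was not run for this contrast. The difference between these effects, double mutant minus WT and Tet2+/-, was past the threshold for 9 of 10 genes in this fit, against 3.11% of all genes in this direction. S100a8 had 3.64 (SE 0.49, adjusted p = 0.00810) and Chil3 3.66 (SE 0.38, adjusted p = 0.00294), and Mmp9 had 1.84 (SE 0.76, adjusted p = 0.170), short of it. That double mutant library also had the highest mitochondrial share. The part of that share in the result was not tested.

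**Figure D3:**
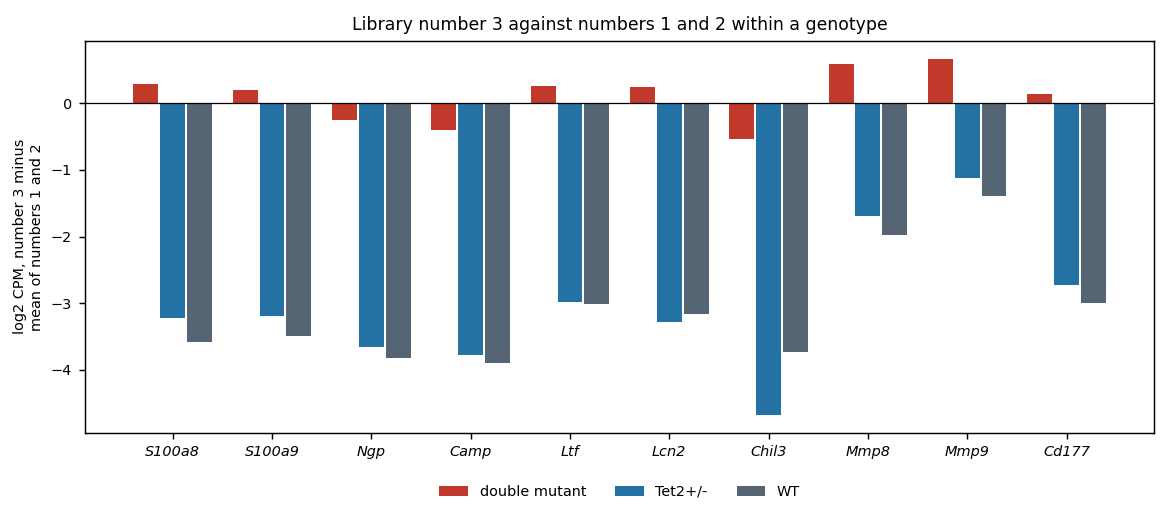
Log2 CPM of library number 3 minus the mean of numbers 1 and 2 for each gene, in the double mutant, Tet2+/- and WT. Bars of Tet2+/- and WT lie between -4.68 and -1.12, and those of the double mutant between -0.53 and 0.67.

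The 10 genes kept fixed proportions to differing degrees. Counts of S100a8 were 51.4 to 58.8% of those of S100a9 in all 11 libraries, a range of 1.14-fold while the level of S100a9 itself varied far more. Cd177 relative to S100a9 was 9.35, 8.69 and 8.63% in the double mutant, 5.10, 3.73 and 6.00% in Tet2+/-, 7.67 and 7.25% in Ins2Akita/+ and 6.12, 7.39 and 9.48% in WT. All 3 Tet2+/- values were below those of every other library. Mmp9 relative to S100a9 was 4.74, 5.93 and 7.35% in the double mutant, 3.35, 2.09 and 11.1% in Tet2+/-, 3.95 and 2.69% in Ins2Akita/+ and 2.74, 3.53 and 13.3% in WT. Number 3 had the highest ratio within each genotype that has 1. Camp relative to S100a9 was 32.6, 22.0 and 17.5% in the double mutant, 25.6, 29.2 and 18.1% in Tet2+/-, 35.8 and 40.3% in Ins2Akita/+ and 39.3, 38.6 and 29.6% in WT, with number 3 the lowest within each genotype that has 1. Chil3 spanned 8.35 to 23.9% of S100a9 and Ngp 60.0 to 104%. A ratio shows unequal change and not which of the genes moved.

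**Figure D4:**
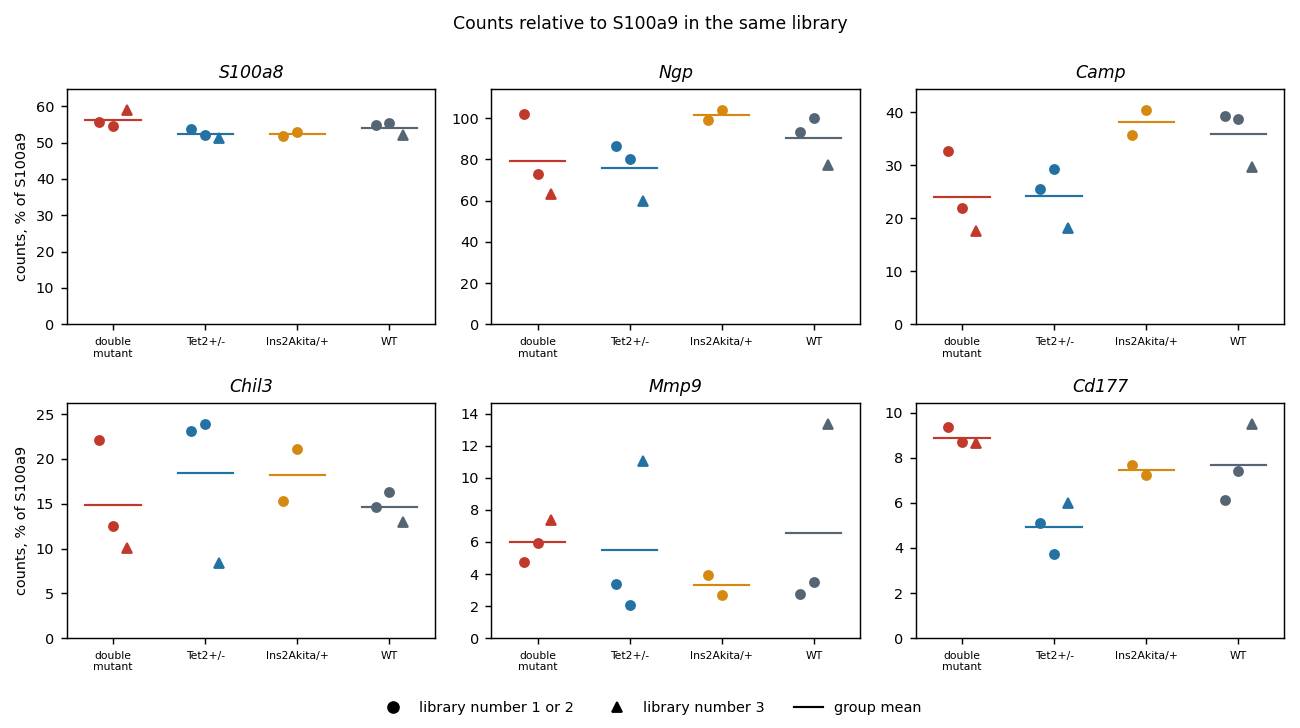
Counts of 6 genes as a percentage of those of S100a9 in the same library, by genotype, from 0. Circles are libraries numbered 1 or 2, triangles those numbered 3, and lines are group means. S100a8 is nearly flat, Mmp9 is highest and Camp lowest in number 3, and Cd177 is lowest in Tet2+/-.

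Over the 11 libraries the 45 pairs among the 10 genes had Pearson correlations of log2 CPM from 0.725 to 0.9996, with a median of 0.963. The S100 pair was highest and Chil3 with Mmp9 lowest. These values describe 11 libraries in which number 3 and the double mutant set most of the spread. Of 9301 genes with a mean of at least 10 CPM, 444 correlated with the mean of the 10 at over 0.9. The 10 most alike were Mcemp1, Wfdc21, Pglyrp1, Prdx5, Anxa1, Itgb2l, Gsdme, Mapk13, Glrx and Hp, at 0.989 to 0.999. Mcemp1 encodes a membrane protein of mast cells and neutrophils, Pglyrp1 a peptidoglycan-binding granule protein, and Hp haptoglobin, a haemoglobin-binding protein. Mcemp1 had 0.996 over the 8 libraries without number 3. Its mean level was 195 CPM in the double mutant, 57.1 in Tet2+/-, 68.5 in Ins2Akita/+ and 51.3 in WT.

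Other genes of the same program were read from lists. Of 14 other granule genes, 14 had a log2 difference above 0 in the double mutant against WT, with a median of 1.79, and 0 passed by edgeR. Hp had 2.22 (SE 0.85, adjusted p = 0.449) and Anxa1, encoding the anti-inflammatory annexin A1, 1.88 (SE 0.84, adjusted p = 0.562). Without the libraries numbered 3, 7 of these 14 rose, against 1.63% of all genes called higher: Pglyrp1, Lrg1, Hp, Wfdc21, Slpi, Orm1 and Adam8. With the replicate block Adam8 rose, and with number 3 as a term Lrg1, Hp, Slpi and Adam8 rose. Of 16 receptors and other late neutrophil genes, all 16 were above 0 (median 1.79) and 0 passed by edgeR with all libraries and no block. With the replicate block Padi4 and Mmp25 rose, without the libraries numbered 3 the count was 6 of 16, and with number 3 as a term 9 of 16. Of all genes, 0.921% were called higher against WT with the block, 1.63% without number 3 and 2.7% with the term. Retnlg, encoding a resistin-like protein, was at 730.2, 1489.7 and 1719 CPM in the double mutant, 415, 477 and 148 CPM in Tet2+/-, 389 and 233 CPM in Ins2Akita/+ and 388, 366 and 78.6 CPM in WT. Mmp25, which encodes a membrane-anchored metalloproteinase of neutrophils, was the 1 gene of these lists to pass by edgeR with all libraries and no block. It rose in the double mutant against Tet2+/-, by 3.74 (SE 0.60, adjusted p = 0.0460). With the replicate block 5 of 14 other granule genes and 6 of 16 late neutrophil genes rose in that comparison, against 2.83% of all genes called higher. Without the libraries numbered 3 these counts were 6 of 14 and 6 of 16, against 3.88% of all genes. Mmp25 stood at 89.5, 156 and 108 CPM in the double mutant, 13.7, 6.41 and 6.28 CPM in Tet2+/-, 40.8 and 20.0 CPM in Ins2Akita/+ and 26.1, 27.5 and 6.59 CPM in WT.

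Genes of the first granule wave were read next. The 7 primary granule genes had a median log2 difference of 0.62 in the double mutant against WT, with 0 passing by edgeR. Mpo, which encodes myeloperoxidase, was at 7394, 7544 and 4546 CPM in the double mutant, 6283, 4502 and 459 CPM in Tet2+/-, 7356 and 5676 CPM in Ins2Akita/+ and 5535, 7351 and 1148 CPM in WT. Its double mutant libraries overlapped with those of all 3 other genotypes. The difference between both lists was not tested. In number 3 against numbers 1 and 2 the primary granule median was -0.83 in the double mutant, -3.66 in Tet2+/- and -2.54 in WT.

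Of 7 transcription factors of granulocyte maturation, 0 passed, with a median of 0.83. Cebpe, whose C/EBP epsilon is needed for specific granules in mouse, was at 113, 161 and 88.0 CPM in the double mutant, 62.8, 56.5 and 5.31 CPM in Tet2+/-, 80.1 and 53.2 CPM in Ins2Akita/+ and 60.0, 69.1 and 9.74 CPM in WT. Its log2 difference in the double mutant against WT was 1.38 (SE 0.84, adjusted p = 0.755), and it was the 1 regulator that rose without the libraries numbered 3, while Cebpb alone rose with number 3 as a term. Spi1, encoding PU.1, had 0.89 (SE 0.78, adjusted p = 0.842). Of 6 other S100 genes tested, 0 passed and the median was 0.74. S100a6 was at 307, 589 and 677 CPM in the double mutant, 127, 179.6 and 34.4 CPM in Tet2+/-, 143 and 104 CPM in Ins2Akita/+ and 158, 129.7 and 40.5 CPM in WT, with every double mutant library above all others. S100a4 and S100a10 had 0.12 and -0.38. Of 9 receptors and inhibitors tested (such as Bsg, Lrp1 and Timp2), 0 passed against WT, with a median of 0.26. The 6 genes near in sequence or position that could be tested had a median of 1.08, again with 0 passing. At an unadjusted p under 0.05 by edgeR, the double mutant differed from WT in 8 of 14 other granule genes, 9 of 16 late neutrophil genes, 0 of 7 primary granule genes and 0 of 7 regulators. The counts were 1 of 6 other S100 genes, 1 of 9 receptors and inhibitors and 2 of 6 genes near in sequence or position, beside 1374 of all 15630 genes. DESeq2 called Lrg1 and Slpi of the first list and Cxcr2, Fpr2, Ly6g, Mmp25, Padi4 and Retnlg of the late neutrophil list. It also called S100a6 and Mmp13, and 0 in the primary granule, regulator and receptor lists, beside 2.61% of all genes.

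Markers of other cells were read beside these values. The summed level of 9 erythroid markers was 1364, 599 and 2676 CPM in the double mutant, 1347, 1949 and 8676 CPM in Tet2+/-, 989 and 2629 CPM in Ins2Akita/+ and 2190.0, 1052 and 5349.6 CPM in WT. It was highest in number 3 within each genotype that has 1, and all 9 genes had a log2 difference below 0 when the double mutant was set against WT. In that comparison 0 of 9 passed by edgeR, 0 had an unadjusted p under 0.05 and DESeq2 called 0. For 8 B lineage markers the sum was 47.7 to 68.4 CPM in the double mutant, against 161 to 293 in Tet2+/-, 149 to 158 in Ins2Akita/+ and 135 to 175 in WT. Of these 8, 5 fell in the double mutant against Tet2+/- and 0 passed against WT by edgeR, where 7 had an unadjusted p under 0.05 and DESeq2 called 6. With the replicate block 5 of 8 fell against WT and 7 of 8 against Tet2+/-. Of all 15630 genes, 28 were called lower against Tet2+/- without the block. With the block 111 were called lower against WT and 261 against Tet2+/-. The 7 T and NK cell markers summed to 40.7 to 64.5 CPM in the double mutant, 87.7 to 197 in Tet2+/-, 83.3 to 96.4 in Ins2Akita/+ and 71.4 to 117 in WT. Against WT 0 of 7 passed by edgeR, where 4 had an unadjusted p under 0.05, and DESeq2 called Cd3e. Leaving out number 3, Cd3g, Lck, Cd3d and Cd3e fell against WT and Tet2+/-, and Cd3d and Cd3e against Ins2Akita/+. In that fit 2 of 7 differences against WT were above 0. Both lymphoid sums were lowest in the double mutant, without overlap with any other genotype. The 7 monocyte markers summed to 501 to 1229 CPM in the double mutant, 287 to 1206 in Tet2+/-, 690.1 to 997 in Ins2Akita/+ and 577 to 1004 in WT. The 8 stem and progenitor markers summed to 365 to 744 CPM in the double mutant, 313 to 577 in Tet2+/-, 483 to 495 in Ins2Akita/+ and 449 to 577 in WT. Monocyte and stem cell sums overlapped between genotypes, but single genes of both lists were called. In the fit without the libraries numbered 3, Irf8 and Gata2 fell in the double mutant against each other genotype, and Flt3 fell against Tet2+/-. Against WT, 5 of 7 monocyte and 4 of 8 stem and progenitor differences were above 0 in that fit. With all libraries DESeq2 called Irf8 against WT, and 0 of the stem and progenitor list. The 6 eosinophil, basophil and mast cell markers summed to 542 to 2681 CPM in the double mutant, 711 to 1479.5 in Tet2+/-, 1158 to 1223 in Ins2Akita/+ and 1329 to 1796 in WT, and the highest was number 3 of the double mutant. Without the libraries numbered 3, Cpa3, Mcpt8 and Ms4a2 fell in the double mutant against each other genotype, with list medians of -1.09 against Tet2+/-, -1.09 against Ins2Akita/+ and -1.04 against WT. Of all 15092 genes in that fit, 578, 191 and 273 were called lower in these comparisons. No marker of these lists was at 0 in every library, and the part of other cells in the neutrophil values was not tested.

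The label of a lineage-negative fraction was set against antigens of mature cells. Itgam, encoding CD11b, was at 696, 1026 and 614 CPM in the double mutant, 436, 231 and 48.4 CPM in Tet2+/-, 484 and 263 CPM in Ins2Akita/+ and 277, 373 and 50.1 CPM in WT. Ly6g, encoding a surface antigen of mature neutrophils, was at 31.9, 54.6 and 112 CPM in the double mutant, 26.5, 26.5 and 8.50 CPM in Tet2+/-, 29.6 and 9.22 CPM in Ins2Akita/+ and 18.5, 17.6 and 5.44 CPM in WT. RNA of both was thus present in all 11 libraries and highest in the double mutant. The labels name no antibodies for the depletion, so RNA of cells left by the depletion and RNA made by maturing cells without these antigens cannot be told apart.

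**Figure D5:**
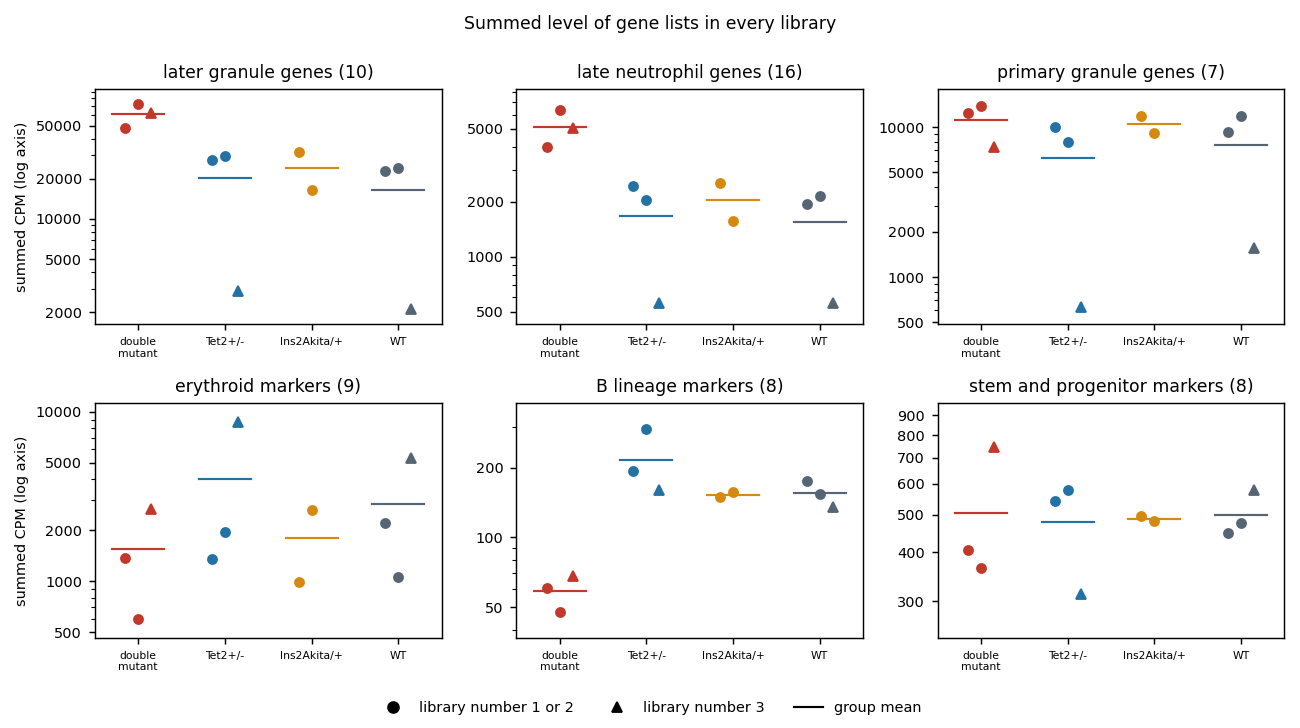
Summed CPM (log axis) of 6 gene lists in the 11 libraries, by genotype, with the number of genes in brackets. Circles are libraries numbered 1 or 2, triangles those numbered 3, and lines are group means. The later granule and late neutrophil lists are high in all double mutant libraries, while erythroid markers are highest in number 3 of each genotype that has 1.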

How the data were processed

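The authors deposited 1 table of raw, whole-number read counts per gene, as its header and values show. The submitters' processing notes name bcl2fastq, Trimmomatic 0.32, TopHat2 2.1.1 and build GRCm38. Neither the counter nor its annotation or strand setting is given in the sources used here. Columns were matched by name to 11 of 12 labelled samples, and 1 column (A3) with no matching label was left out. Of 31060 identifiers 25042 matched GENCODE M21 with their version and 30875 without it.

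Tests used edgeR 4.0.16 (R 4.3.3): filterByExpr, TMM factors, a single fit of 4 groups by glmQLFit with robust=TRUE, glmQLFTest, and Benjamini-Hochberg adjusted p under 0.05 over all 15630 genes, in 6 comparisons. The standard error is the log2 difference over the square root of F. Alternatives were RLE factors, no low count filter, DESeq2 1.42.0, the replicate block, library number 3 left out or as a term, and leaving out each library. Values within a library number are log2 CPM with a prior count of 2. No pair of libraries of the same genotype held the same values within sampling noise (chi-square per gene of at least 15.6). Pairs of different genotypes were not compared. Likeness was the correlation with the mean log2 CPM of the 10 genes. Named were the 10 genes, the 10 most alike, up to 4 of a list by mean CPM and list genes that passed. Members and lists were chosen with earlier results of these data known. The fit was also run on simulated counts with known folds in the double mutant, drawn without a shift for library number 3. Only median log2 differences against WT were checked there, so that run does not bear on the calls given here.

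What a replicate number marks is not stated. Deviations of same-numbered libraries from their group means correlated at 0.318 to 0.791 among the double mutant, Tet2+/- and WT, all over 0.1. Over all genes, number 3 stood far from numbers 1 and 2 in each of these groups. It alone can make such correlations positive at every number, so they do not show that numbers 1 and 2 were paired. The main fit had no block, and fits with the replicate number as a block are given beside it. With Ins2Akita/+, which has no number 3, the correlations were at -0.351 to 0.264. Since no label names separate animals, the spread behind a p-value may be technical. Floors of 3 counts cover counting error only.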

Additional observations from a re-analysis of the deposited data

Results flagged for a closer look

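For 9 of the 10 genes library number 3 stood differently to numbers 1 and 2 in the double mutant than in WT and Tet2+/-, in a fit added because that difference had been seen. Its adjusted p-values are therefore no independent support. The value is the log2 difference of number 3 against numbers 1 and 2 in the double mutant, minus the same in WT and Tet2+/-, by edgeR. It was 3.64 for S100a8 (adjusted p = 0.00810), 3.48 for S100a9 (adjusted p = 0.0113), 3.48 for Ngp (adjusted p = 0.00434) and 3.43 for Camp (adjusted p = 0.00359). It was 3.23 for Ltf (adjusted p = 0.0135), 3.45 for Lcn2 (adjusted p = 0.00878) and 3.66 for Chil3 (adjusted p = 0.00294). For Mmp8 it was 2.36 (adjusted p = 0.0468) and for Cd177 2.96 (adjusted p = 0.0219). Of all genes tested 3.11% were called in this direction. Each value rests on 1 double mutant library. That library had 9.76% mitochondrial counts, against 4.46% in Tet2+/- number 3 and 3.43% in WT number 3. Its erythroid sum was the highest of its genotype, as in the other libraries numbered 3, while its later granule genes were not low. The cause of the difference was not tested.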

How the results depend on the processing

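Of 1020 values of single genes under other settings, 999 stayed on the same side of the threshold and 21 passed it only under the other setting. In the added fit with separate terms, number 3 against numbers 1 and 2 in the double mutant was 0.14 for S100a9, 0.51 for Mmp8 and 0.094 for Cd177, among 7 of 10 genes with the opposite sign of the common term. Genes called in the double mutant against WT numbered 7. The count was 52 with no low count filter, 408 by DESeq2, 255 with the replicate block, 519 without the libraries numbered 3 and 687 with number 3 as a term. In the same order, 41 calls in the double mutant against Tet2+/- became 86, 538, 703, 1163 and 1354, and 6 against Ins2Akita/+ became 20, 189, 18, 436 and 64. For Tet2+/- against WT the 4 calls became 45 by DESeq2, 8 with the block, 22 without number 3 and 8 with the term. The interaction had 0 calls, 3 with no filter, 60 by DESeq2, 3 with the block, 7 without number 3 and 11 with the term. Of the 10 genes, 0 were called against WT, but 2 by DESeq2, 1 with the block, 4 without number 3 and 3 with the term. Against Tet2+/- these counts were 0, then 3, 2, 1 and 3, and against Ins2Akita/+ 0, then 1 by DESeq2 and 1 without number 3. The median of the 10 genes against Ins2Akita/+ was 1.53, 2.54 with the replicate block and 2.51 with number 3 as a term, and that of the interaction 1.19, 2.11 and 2.06. In Ins2Akita/+ against WT it was 0.54, and 0.35 with the block. The replicate block changed no other call of these genes than those printed with the results. RLE factors moved no count by over 1.5 times. With 1 library left out in turn, none of the 10 genes was called in any comparison. Genes called ranged from 1 to 49 in the double mutant against WT, 0 to 66 against Tet2+/-, 0 to 11 against Ins2Akita/+ and 1 to 7 in Tet2+/- against WT, and were 0 in the others. Medians of the 10 genes ranged from 1.503 to 2.41, 1.23 to 2.11 and 1.13 to 2.11 in the first 3, and from 0.69 (without Tet2+/- replicate 3) to 1.82 (without Ins2Akita/+ replicate 1) for the interaction, where it was 0.75 without Ins2Akita/+ replicate 2 and 0.79 without WT replicate 2. The median in Tet2+/- against WT ranged from -0.17 (without WT replicate 3) to 0.77 (without Tet2+/- replicate 3), was 0.56 and 0.68 without WT replicate 1 or 2, and was also below 0 without Tet2+/- replicate 1 or 2 (-0.05 and -0.08). In Ins2Akita/+ against WT it ranged from -0.06 (without Ins2Akita/+ replicate 1) to 0.95 (without Ins2Akita/+ replicate 2) and was 0.86, 0.92 and 0.06 without WT replicates 1, 2 or 3. The causes of these changes were not tested. Depth limited none of the 10 genes, whose counts were at least 652.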

Other observations

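Fcnb, which encodes ficolin B, a lectin of granulocyte precursors, departed from the other granule genes and was chosen here after its values were seen. It was at 307, 497 and 10.5 CPM in the double mutant, 29.9, 21.5 and 0.387 CPM in Tet2+/-, 440.3 and 316 CPM in Ins2Akita/+ and 374, 345 and 5.99 CPM in WT. It was low in all 3 Tet2+/- libraries, and in number 3 of every genotype that has 1, the double mutant included, where the later granule genes were not low. In the double mutant against Tet2+/- it rose with the replicate block (4.16, adjusted p = 0.00191) and without the libraries numbered 3 (3.96, adjusted p = 0.00165) by edgeR, but not with all libraries and no block, where it had 3.97 (SE 1.72, adjusted p = 0.441). In Tet2+/- against WT it fell with the replicate block (-3.79, adjusted p = 0.00135) and without the libraries numbered 3 (-3.80, adjusted p = 0.00301), and had -3.81 (SE 1.70, adjusted p = 1) with neither. Its interaction was called in both fits and with number 3 as a term. In the double mutant against WT it had 0.16 (adjusted p = 0.792) without number 3. The ratio of Cd177 to S100a9 was also lowest in Tet2+/-, and no test links both.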
